A study of Homo sapiens with 16 samples.

Results

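The genes described here are those whose deposited locus starts in the first 30 Mb of chromosome 7, the outer part of its short arm, in MDA-MB-231 cells with and without BMAL1. MDA-MB-231 is an established line of human triple-negative breast cancer. The interval was chosen by the ratio of BMAL1 knockout (KO) over wild-type (WT) FPKM, since earlier results of these data showed lower levels there in KO than in WT cells. The ratio of KO over WT is therefore a description here and is given with no test of its own. Of 60658 genes in each deposited table, 520 are members, after IL6, AHR, TWIST1, NDUFA4 and MAFK of the same interval were left out. FPKM is a level scaled to transcript length and to the fragments of the library. Of the 520, 252 were listed at 0 in every group and 145 stayed under 1 FPKM in every group. The other 123 reached 1 FPKM in at least 1 group, and 86 of them did so in every table, 79 of which are protein-coding.

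The study holds 16 samples in 8 groups of 2 biological replicates. Cells labelled Wild type or BMAL1 -/- were kept as control or given 1 of 3 drugs. Cisplatin forms DNA crosslinks, doxorubicin is an intercalator and topoisomerase poison, and tunicamycin stops N-glycosylation in the endoplasmic reticulum. All are of the same line at the same range of passages. Doses, times, the edit made in the gene and the number of clones are not stated in the sources used here, so a difference between genotypes and one between clones or cultures cannot be told apart. Each treatment has its own deposited table, in which a group is a single FPKM value, and the spread of its replicates is unknown. Levels below are these group FPKM, written from WT to KO. "Called" means a q-value of at most 0.05 in the authors' own test. In bulk RNA, fewer cells expressing a gene and less RNA per cell cannot be told apart.

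BMAL1 (gene symbol ARNTL, on chromosome 11) is a transcription factor that pairs with CLOCK, binds E-box sequences and drives the circadian clock. ARNTL was lower in KO cells in control (5.67 to 0.889 FPKM) and doxorubicin (1.31 to 0.474), where it was called. It was 1.26 to 0.941 with cisplatin (q = 0.467 in the authors' deposited table) and 3.25 to 2.24 with tunicamycin (q = 0.0810 in the authors' deposited table), where it was not. Inside the tables the groups carry only the codes nt and bk, which the labels do not explain. They were taken as WT and KO from the order in the tables' names, and a reversed order would invert every ratio given here. Counts per library are not given here. As a rough guide to depth, the low end of the nonzero values (5th percentile) in WT control was 1.35 to 2.74 times that of the other groups, which mixes depth with scaling. VIM, a mesenchymal marker of this line, was between 2883 and 6640 FPKM. Other markers on other chromosomes differed between the genotypes in every table. The log2 ratio of KO over WT was -1.98 to -1.58 for EPCAM, -1.35 to -0.87 for KRT19, -1.27 to -0.91 for CD44 and 0.25 to 0.66 for KRT18. Their part in the members' ratios was not tested. The extraction protocol in the labels speaks of fibroblast lines, but the fibroblast gene DCN was listed at 0 in all 8 groups, ESR1 was at most 0.196 and PTPRC, a leukocyte marker, at most 0.0135.

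The level of a gene's RNA depends on how strongly it is transcribed, on how fast its RNA decays and on how many copies of the gene a cell carries. Cancer lines are often aneuploid, and subclones of a line can gain or lose chromosome arms or segments, which shifts many neighbouring genes at once. DNA copy number was not analysed here, and its part in the ratios was not tested.

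Because BMAL1 binds the E-box CACGTG, the promoters of the members were searched for these letters, which read the same on both strands. Promoters are the 300-base windows around the annotated start in the RefSeq table for GRCh38.p14, and 60 of the 86 members matched an entry. CACGTG stood in 8 of the 60 (13.3%), beside 2548 of 35116 promoters of the whole table (7.26%) and 801 of 7571 matched promoters of other genes that reached 1 FPKM in a group of every table (10.6%). The 8 members were DNAAF5, NUDT1, SNX8, AP5Z1, CYTH3, IGF2BP3, CCDC126 and SCRN1. The promoters of CCDC126 (chr7:23597132-23597431, plus strand), CYTH3 (chr7:6272575-6272874, minus strand) and SCRN1 (chr7:29989752-29990051, minus strand) are shown because they hold the same motif while their genes had very different ratios. Capitals mark CACGTG, and each is written 5′ to 3′ on the strand of the gene.
CCDC126: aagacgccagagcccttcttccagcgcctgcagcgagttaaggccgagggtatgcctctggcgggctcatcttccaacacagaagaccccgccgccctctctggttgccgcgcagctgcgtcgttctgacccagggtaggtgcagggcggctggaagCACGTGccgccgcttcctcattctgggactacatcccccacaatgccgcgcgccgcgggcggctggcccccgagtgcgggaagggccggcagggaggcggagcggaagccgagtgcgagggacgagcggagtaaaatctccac
CYTH3: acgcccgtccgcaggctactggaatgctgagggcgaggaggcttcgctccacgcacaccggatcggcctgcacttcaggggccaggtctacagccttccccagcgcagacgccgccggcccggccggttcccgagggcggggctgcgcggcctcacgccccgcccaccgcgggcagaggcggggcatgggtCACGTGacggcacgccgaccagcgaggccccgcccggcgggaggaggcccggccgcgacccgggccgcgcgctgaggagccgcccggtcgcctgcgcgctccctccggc
SCRN1: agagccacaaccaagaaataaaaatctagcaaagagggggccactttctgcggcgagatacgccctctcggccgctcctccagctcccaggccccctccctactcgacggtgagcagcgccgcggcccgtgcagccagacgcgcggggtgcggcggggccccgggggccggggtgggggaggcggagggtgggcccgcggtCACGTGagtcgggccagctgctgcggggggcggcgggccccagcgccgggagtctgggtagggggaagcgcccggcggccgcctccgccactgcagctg
CCDC126 and CYTH3 were called lower in KO cells in all 4 tables, with median log2 ratios over the tables of -1.68 and -1.63. SCRN1 had 0.12. Over the 8 members with CACGTG the median of such ratios was -0.676, and over the 52 without it -1.13. The 3 promoters were picked for their ratios, and no relation of the motif to the ratio was tested.

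KO cells had lower levels than WT cells across most of the interval under each treatment. Among members that reached 1 FPKM in a group of the table, the median ratio of KO over WT was 0.451 in control (112 genes with a finite ratio), 0.435 with cisplatin (113), 0.514 with doxorubicin (90) and 0.431 with tunicamycin (114). The middle 50% of genes ran from 0.309 to 0.687 in control, 0.323 to 0.626 with cisplatin, 0.329 to 0.767 with doxorubicin and 0.328 to 0.675 with tunicamycin. On the log2 scale the medians were -1.15, -1.20, -0.96 and -1.21, while the medians over all genes of the tables were 0.01, 0.02, 0.04 and 0.04. Ratios lay below 1 in 100 of 112, 106 of 113, 76 of 90 and 104 of 114 members.

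Genes further along the same chromosome stood near a ratio of 1 in the median, though not everywhere. Between 30 and 60 Mb the median log2 ratio was -0.14 in control, 0.02 with cisplatin, -0.04 with doxorubicin and 0.08 with tunicamycin. Past 60 Mb it was 0.02, -0.02, -0.01 and -0.03, and over other chromosomes 0.01, 0.03, 0.05 and 0.05. Between 30 and 60 Mb, 32.26% of tested genes were called lower in control and 29.9% with cisplatin, beside 20.69% and 23.72% on other chromosomes. With doxorubicin and tunicamycin 19.05% and 19.15% were, beside 20.43% and 21.56%. From 36 to 38 Mb, over 2 to 4 genes, the medians were -0.89, -0.577, -0.673 and -1.03. PDE1C, picked after its values were seen, has a locus that starts at 31751178. Its log2 ratios were -2.13, -2.42, -2.82 and -2.17. PDE1C, ZNRF2, ANLN and EPDR1, all past the bound, were called lower in all 4 tables. MRPS24, POLD2, DDX56 and DBNL, also past it, were called higher in all 4. A log2 ratio of -1 or less was found in 62 of 112 members in control (55.4%), beside 10.2% of genes between 30 and 60 Mb and 7.23% on other chromosomes. These shares are descriptions, since the interval was picked for its low ratios.

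**Figure D1:**
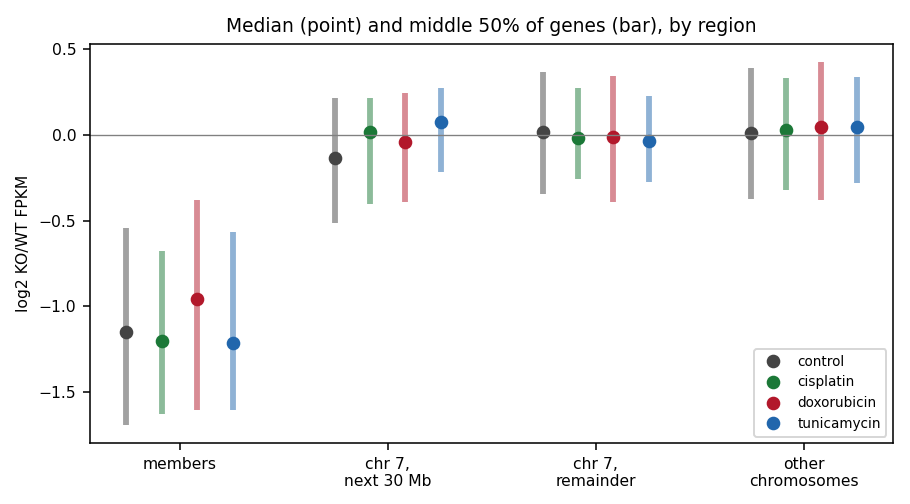
Median (points) and middle 50% of genes (bars) of the log2 ratio of KO over WT FPKM, on the vertical axis, for members, the next 30 Mb of chromosome 7, its remainder and other chromosomes, with 1 colour per treatment. The members' medians lie between -1.21 and -0.96, and those of the other regions between -0.14 and 0.08.

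By the authors' test, 82 of 113 tested members were called lower in KO cells in control, where 21.1% of all tested genes were. The counts were 94 of 122 with cisplatin (24.2% of all tested genes), 60 of 102 with doxorubicin (20.7%) and 92 of 126 with tunicamycin (22.1%). Called higher were 7 members in control (22.7% of all tested genes), 1 with cisplatin (25.4%), 7 with doxorubicin (24.4%) and 4 with tunicamycin (27.2%). Of the 86 members at 1 FPKM in a group of every table, 48 were called lower in all 4, beside 9.22% of the 9826 genes of the series that met the same minimum. A further 18 were called lower in 3 tables, and 6 were called in none. The rule that chose the interval used these contrasts, so nothing further is read from the counts. The members' share of all summed FPKM was 1.39% in WT and 0.784% in KO cells in control, 1.07% and 0.499% with cisplatin, 1.12% and 0.639% with doxorubicin and 1.13% and 0.616% with tunicamycin. ACTB alone made up a large part of these sums. Without it the shares in control were 0.714% and 0.410%.

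The low ratios did not run evenly from the chromosome end to 30 Mb. For description, the 86 members were split into 6 stretches by the start of their locus, with bounds set after the values were seen, and most stretches hold few genes. From the end of the chromosome to 2.5 Mb, the 17 members had a median ratio of 0.642. From 2.5 to 16 Mb, 34 members had a median ratio of 0.349, and 24 of them were called lower in all 4 tables. The 3 members between 16 and 17 Mb had a median ratio of 0.717, and none was called lower in all 4 tables. From 17 to 25 Mb the median ratio was 0.323 over 17 members, 13 of them called lower in all 4. From 25 to 28 Mb it was 0.685 over 10 members, and from 28 to 30 Mb it was 1.30 over 5 members, none of which was called lower in all 4 tables. The description of the interval as lower in KO cells did not hold for its last 2 Mb, and was weaker at the chromosome end, from 16 to 17 Mb and from 25 to 28 Mb.

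In the table of each treatment, the stretch from 2.5 to 16 Mb had a median log2 ratio of -1.47, -1.48, -1.38 and -1.43 (control, cisplatin, doxorubicin, tunicamycin), and that from 17 to 25 Mb -1.53, -1.46, -1.56 and -1.47. The outermost stretch had -0.45, -0.95, -0.49 and -0.63, with the lowest value with cisplatin. The 3 members from 16 to 17 Mb had -0.60, -0.44, -0.27 and -0.52. The stretch from 25 to 28 Mb had -0.78, -0.56, -0.62 and -0.16, so that with tunicamycin it lay close to a ratio of 1. The stretch from 28 to 30 Mb had 0.36, 0.12, 0.05 and 0.55. Windows of 2 Mb gave a similar outline in control. There the median was -1.32 over 15 genes from 4 to 6 Mb, -1.48 over 20 genes from 6 to 8 Mb, -1.72 over 11 genes from 22 to 24 Mb and 0.41 over 6 genes from 28 to 30 Mb. With tunicamycin the windows did not bear out the value near a ratio of 1. They gave -1.15 over 5 genes from 24 to 26 Mb and -0.605 over 9 genes from 26 to 28 Mb. Windows have other bounds and take each gene at 1 FPKM in that table. From 14 to 16 Mb no member reached 1 FPKM.

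**Figure D2:**
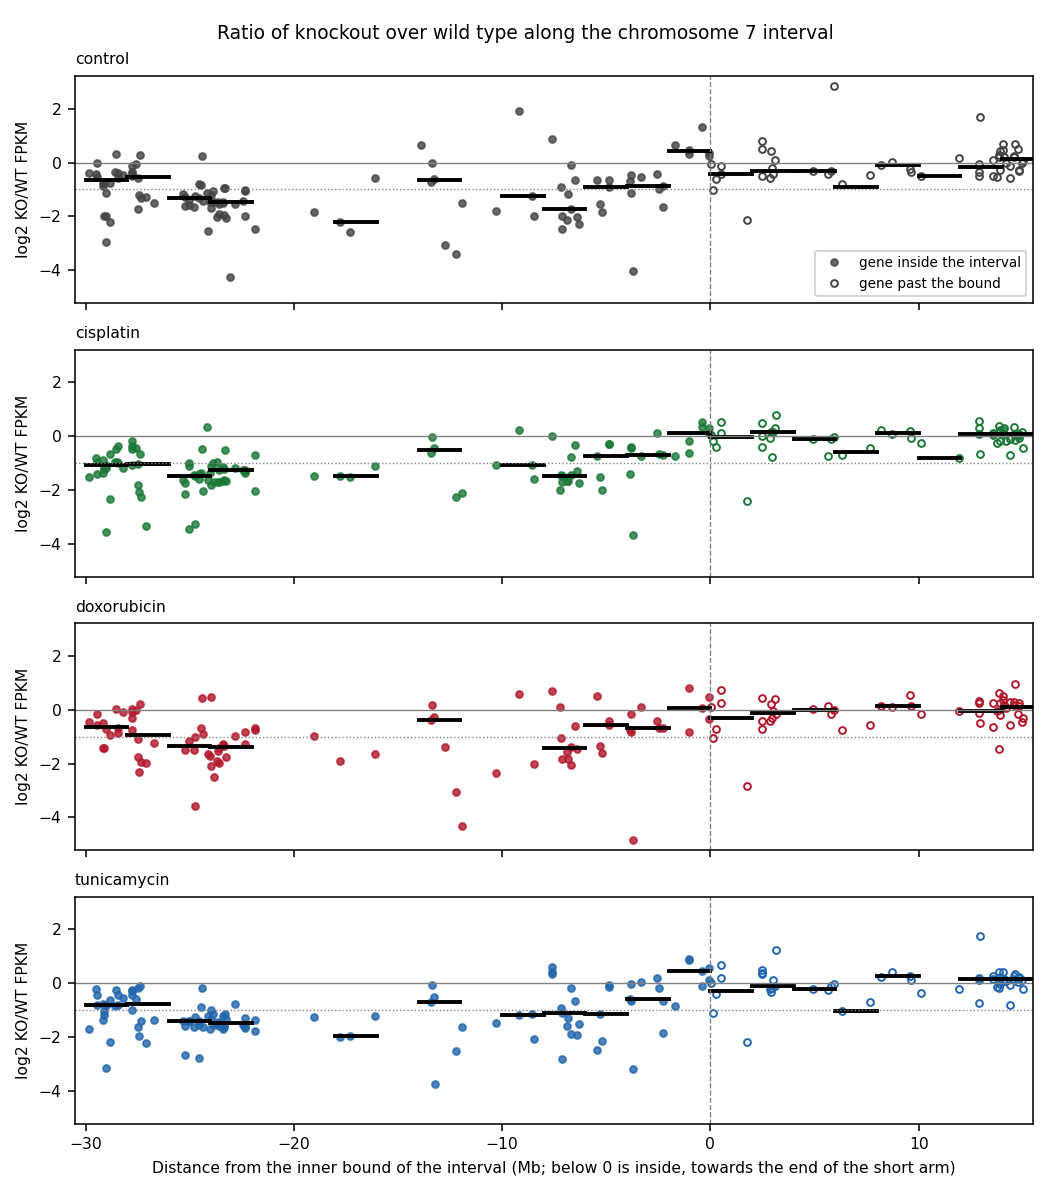
Log2 ratio of KO over WT FPKM of each gene at 1 FPKM or more (vertical axis) against its distance in Mb from the inner bound of the interval (horizontal axis), 1 panel per treatment; black bars are medians of 2 Mb windows with 3 or more genes, and past the bound only genes at 1 FPKM in a group of every table are drawn. In control the window medians are between -2.19 and -0.54 up to 2 Mb before the bound and 0.41 in the last window inside it.

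At the inner end, the 3 members nearest the bound were ZNRF2P2, SCRN1 and FKBP14. ZNRF2P2, a pseudogene, went from 1.79 to 4.52 in control, 2.69 to 3.84 with cisplatin, 1.67 to 1.73 with doxorubicin and 4.68 to 6.47 with tunicamycin. By its symbol it is a copy of ZNRF2, and its fragments may not be told with certainty from those of ZNRF2. SCRN1 went from 63.7 to 81.6, 63.8 to 69.4, 45.6 to 36.0 and 62.5 to 67.9. FKBP14, a prolyl isomerase of the endoplasmic reticulum, went from 7.28 to 8.55, 9.23 to 11.3, 8.14 to 11.2 and 23.8 to 34.9. FKBP14 itself starts past 30 Mb and is a member because the authors' locus joins it with SCRN1. KO values of all 3 lay above WT values except that of SCRN1 with doxorubicin, and SCRN1 was called in every table. Just past the bound, PLEKHA8 went from 6.55 to 6.33 in control, MTURN from 5.33 to 2.62 and ZNRF2 from 5.38 to 3.49, with median log2 ratios over the tables of 0.01, -1.03 and -0.52.

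Before that, a change in ratio falls between TAX1BP1 and CPVL. TAX1BP1, an autophagy receptor (chromosome 7, 27739331 to 27844564, GRCh38, GENCODE 29, plus strand, the whole gene), went from 53.2 to 29.2 in control, 51.3 to 31.3 with cisplatin, 64.6 to 40.7 with doxorubicin and 60.3 to 37.9 with tunicamycin. CPVL, a carboxypeptidase (28995231 to 29195451, minus strand), went from 24.9 to 34.5, 14.2 to 12.5, 34.9 to 61.7 and 20.8 to 37.5. TAX1BP1 was called lower in all 4 tables, and CPVL was called higher in control, doxorubicin and tunicamycin.

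**Figure D3:**
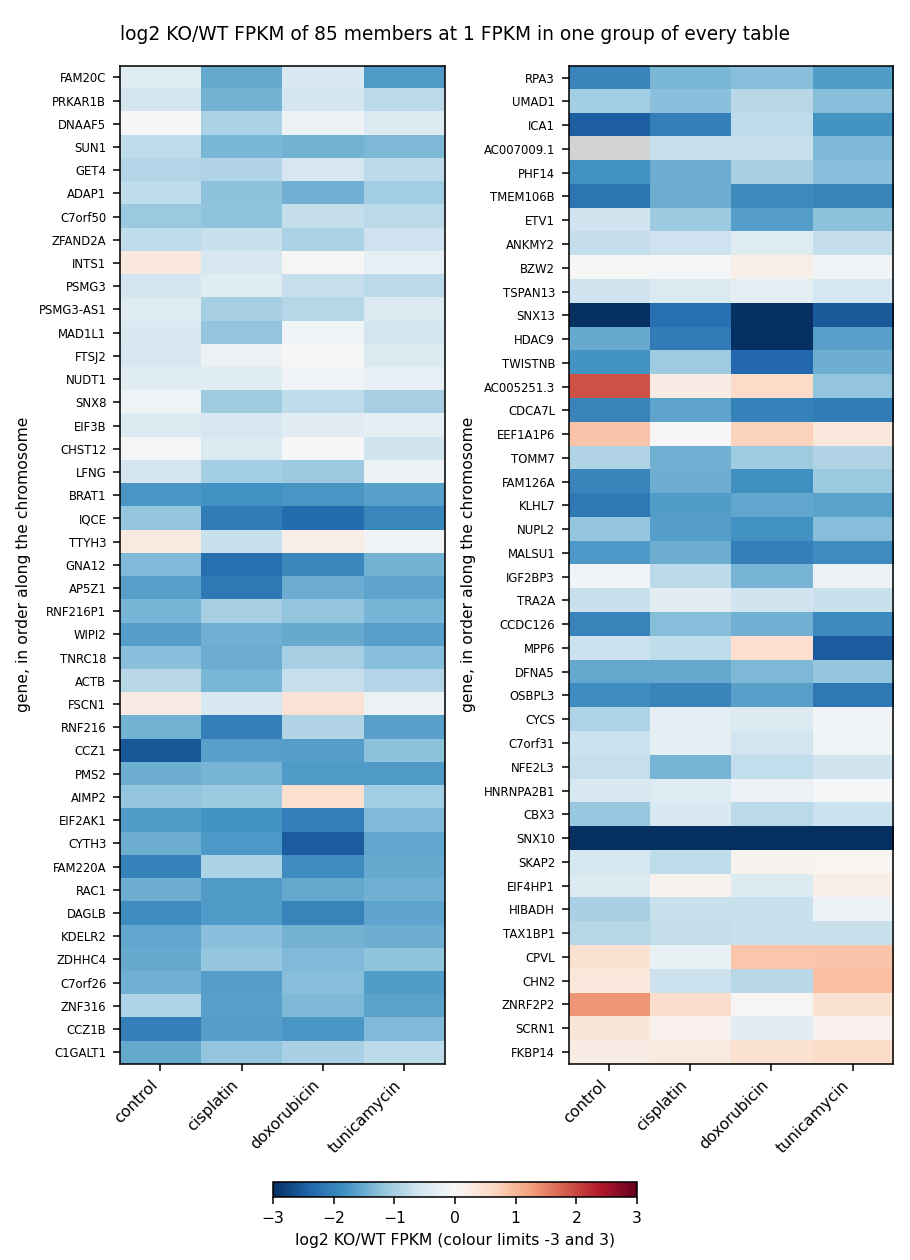
Log2 ratio of KO over WT FPKM (colour, limits -3 and 3) of 85 of the 86 members at 1 FPKM in a group of every table, in order along the chromosome (rows, continued in the right panel) and by treatment (columns); grey marks a ratio with KO listed at 0. Rows from BRAT1 to OSBPL3 are mostly blue, and the last 5 rows are mostly red.

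The gene lists below are parts of the same interval, and their counts were not compared with the other members. Of all tested members, 72.57% were called lower in control, 77.05% with cisplatin, 58.82% with doxorubicin and 73.02% with tunicamycin. Of all tested genes, 20.7% to 24.2% were. Actin and motility genes, which shape the cell cortex and drive migration, were mostly lower, like the members in general. Of 10 tested members of this list, 7 were called lower and 1 higher in control, 10 and 0 with cisplatin, 7 and 1 with doxorubicin and 9 and 0 with tunicamycin. RAC1, a small GTPase that drives lamellipodia (6374523 to 6403977, plus strand), went from 329 to 119 in control, 350 to 107 with cisplatin, 366 to 126 with doxorubicin and 289 to 106 with tunicamycin. Its KO value lay below its WT value in each table, and the ratio stayed between 0.306 and 0.368. ACTB, cytoplasmic beta-actin and the most abundant member, went from 4663 to 2607, 3042 to 1173, 4821 to 3005 and 3077 to 1673. CYTH3, an exchange factor for ARF GTPases, went from 17.8 to 6.51, 17.9 to 5.46, 5.90 to 1.04 and 22.1 to 7.54. GNA12, a G protein alpha subunit, went from 51.8 to 20.7, 36.8 to 7.74, 21.2 to 5.55 and 54.4 to 20.3. FSCN1 (fascin, which bundles actin in filopodia) was the exception, at 79.0 to 93.5 in control, 145 to 104 with cisplatin, 94.5 to 128 with doxorubicin and 52.2 to 46.1 with tunicamycin. It was called higher in control and doxorubicin and lower in the other tables, and it lies next to ACTB on the chromosome.

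The DNA repair and replication list holds NUDT1, BRAT1, AP5Z1, PMS2 and RPA3. All 5 were called lower in control, cisplatin and tunicamycin, and 3 of them with doxorubicin. PMS2, a mismatch repair protein (5973239 to 6009125, minus strand), went from 5.56 to 2.01 in control, 8.20 to 3.13 with cisplatin, 1.12 to 0.344 with doxorubicin and 7.33 to 2.27 with tunicamycin. The value with doxorubicin was not called (q = 0.113 in the authors' deposited table). PMS2 has near-identical copies, which makes its level uncertain. RPA3, the small subunit of the single-strand DNA binding complex RPA, went from 74.9 to 19.1, 52.7 to 20.5, 63.0 to 26.2 and 44.4 to 13.9. BRAT1, a partner of BRCA1 and ATM, went from 32.2 to 9.63, 52.0 to 14.7, 14.1 to 4.22 and 20.4 to 6.55. Among the 54 members at 5 FPKM in a group of every table, BRAT1 had the narrowest range of the log2 ratio over the tables, 0.18. NUDT1, which clears oxidised nucleotides, lies in the outermost stretch and differed less, at 81.0 to 62.8, 101 to 77.9, 103 to 96.4 and 69.7 to 59.0.

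Genes of RNA processing, protein synthesis and protein handling had a median of the log2 ratios of -0.63 over the 14 members at 1 FPKM in a group of every table. Of 15 tested in control, 12 were called lower and 1 higher, and with doxorubicin 7 of 14 were lower and 2 higher. In cisplatin and tunicamycin, 14 and 13 of 15 were called lower and 0 higher. EIF2AK1, the heme-regulated kinase of the translation factor eIF2 (6022244 to 6059230, minus strand), went from 66.6 to 20.7 in control, 71.8 to 20.6 with cisplatin, 66.6 to 15.7 with doxorubicin and 57.0 to 22.6 with tunicamycin. In each table its KO value lay far below its WT value. HNRNPA2B1, an RNA-binding protein, went from 1016 to 745, 476 to 361, 1331 to 1183 and 765 to 744, and EIF3B, a core subunit of the initiation factor eIF3, from 267 to 202, 284 to 201, 213 to 171 and 206 to 170. Both were called lower in every table at ratios of 0.710 or more. BZW2, a regulator of translation start, showed little difference at 64.8 to 64.2, 58.5 to 56.7, 62.2 to 70.0 and 51.9 to 49.3, and was called with doxorubicin only, as higher. BZW2 is the middle of the 3 members between 16 and 17 Mb, and its neighbours ANKMY2 and TSPAN13 had median log2 ratios of -0.66 and -0.48.

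AIMP2, a scaffold of the aminoacyl-tRNA synthetase complex, was called in both directions. It went from 86.0 to 37.6 in control, 87.7 to 40.6 with cisplatin and 65.0 to 32.3 with tunicamycin, where it was called lower, and from 8.35 to 11.6 with doxorubicin, where it was called higher. AIMP2 and EIF2AK1 share a deposited locus, and the use of strand in counting is not given in the sources used here. With doxorubicin EIF2AK1 had its lowest ratio, 0.236. The difference between tables was not tested for either gene.

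Chromatin and transcription genes contained no higher call in any table, and neither did the DNA repair and mitochondrial lists. Higher calls were rare in the whole interval, at 0.82% to 6.86% of tested members per table, beside 22.7% to 27.2% of all tested genes. Called lower were 12 of 14 tested in control, 11 of 14 with cisplatin, 7 of 9 with doxorubicin and 13 of 14 with tunicamycin. CBX3, heterochromatin protein 1 gamma, went from 216 to 98.6 in control, 132 to 95.9 with cisplatin, 117 to 66.2 with doxorubicin and 110 to 70.6 with tunicamycin. HDAC9, a histone deacetylase, went from 4.32 to 1.51, 4.48 to 1.04, 1.36 to 0.0686 and 6.67 to 2.15. Its widest gap, with doxorubicin, rests on a KO value far under 1 FPKM and is uncertain in size. ETV1, an ETS factor, went from 13.4 to 8.91, 9.97 to 4.65, 7.90 to 2.51 and 17.1 to 7.35. CDCA7L, a MYC-interacting nuclear protein outside the list, went from 144 to 36.1, 130 to 43.3, 52.3 to 12.8 and 95.4 to 22.4 and had a median log2 ratio of -2.01.

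The HOXA cluster, a set of homeobox genes that pattern the body axis, lies at about 27 Mb and gave no readable ratio. None of its 19 listed genes and noncoding transcripts reached 1 FPKM, the highest value was 0.319, and 9 were listed at 0 in all 8 groups.

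Mitochondrial proteins were called lower in 6 of 6 tested members in control and cisplatin, 4 of 6 with doxorubicin and 5 of 6 with tunicamycin. NUDT1 is counted both in this list and in that of DNA repair. MALSU1, an assembly factor of the mitochondrial ribosome, went from 99.2 to 30.04 in control, 104 to 37.8 with cisplatin, 6.49 to 1.56 with doxorubicin and 69.9 to 19.0 with tunicamycin. TOMM7, a subunit of the outer membrane import pore, went from 247 to 131, 390 to 144, 485 to 233 and 298 to 159. CYCS, cytochrome c, which carries electrons and triggers the apoptosome, went from 269 to 142 in control but from 228 to 187, 325 to 245 and 186 to 176 under the drugs. The last of these was not called (q = 0.331 in the authors' deposited table).

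Secretory, autophagy and lysosome genes were called lower in 8 of 11 tested members in control, 9 of 11 with cisplatin, 6 of 10 with doxorubicin and 10 of 12 with tunicamycin. CPVL was called higher in all of these tables but cisplatin. KDELR2, which returns chaperones to the endoplasmic reticulum, went from 124 to 42.5 in control, 97.2 to 40.5 with cisplatin, 124 to 46.5 with doxorubicin and 134 to 48.3 with tunicamycin. WIPI2, needed for autophagosome formation, went from 51.3 to 16.4, 71.3 to 26.2, 35.1 to 12.4 and 53.5 to 17.2. TMEM106B, a lysosomal membrane protein, went from 13.7 to 2.998, 11.9 to 4.20, 9.66 to 2.58 and 14.8 to 3.70. C1GALT1, which builds the core of O-glycans, had 21.1 to 7.28, 18.4 to 8.03, 8.58 to 4.40 and 13.0 to 7.60.

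Among signalling genes, 9 of 15 tested members were called lower and 1 higher in control, 14 of 16 and 0 with cisplatin, 10 of 13 and 1 with doxorubicin and 10 of 17 and 0 with tunicamycin. SNX10, a sorting nexin of endosomes, had the most negative median of the members, -3.86, at 3.82 to 0.234, 1.64 to 0.127, 3.38 to 0.118 and 2.09 to 0.227. All its KO values were under 1 FPKM, so the size of its ratio is uncertain. SNX10 lies among genes with a median ratio of 0.685. SNX13, a further sorting nexin, followed at 5.90 to 0.556, 4.47 to 0.932, 4.47 to 0.535 and 6.60 to 1.15. DFNA5 (gasdermin E, which forms membrane pores in dying cells) went from 31.2 to 10.8, 29.2 to 10.1, 32.4 to 12.8 and 31.8 to 14.3. GPER1, a membrane oestrogen receptor, was chosen after its values were seen, since it missed 1 FPKM with doxorubicin. It went from 5.40 to 0.704, 17.3 to 1.45, 0.819 to 0.273 and 3.64 to 0.409, with each of its ratios at 0.333 or less in the outermost stretch, whose median ratio was 0.642.

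Of the 86 members, 11 were called higher at least once, namely INTS1, TTYH3, FSCN1, AIMP2, BZW2, EEF1A1P6, CPVL, CHN2, ZNRF2P2, SCRN1 and FKBP14. Of these, INTS1, TTYH3, FSCN1, AIMP2 and SCRN1 were also called lower in another table. By the start of their locus, CPVL, CHN2, ZNRF2P2, SCRN1 and FKBP14 are the 5 members between 28 and 30 Mb. FKBP14 itself starts past 30 Mb. EEF1A1P6 is a processed pseudogene of a translation factor, whose fragments cannot be told with certainty from those of its parent gene. TTYH3, a chloride channel, went from 34.4 to 41.9 in control, 39.4 to 24.8 with cisplatin, 31.8 to 36.4 with doxorubicin and 27.9 to 26.3 with tunicamycin, although it lies between IQCE (median log2 ratio -2.02) and GNA12 (-1.68).

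Differences between tables were described by their range and not tested. Over the 54 members at 5 FPKM in a group of every table, the range of the log2 ratio across the 4 tables had a median of 0.67. It was under 0.5 in 18 of them and over 1 in 8. The widest was that of MPP6, a membrane scaffold protein, at 14.5 to 9.21 in control, 44.4 to 26.4 with cisplatin, 7.94 to 11.3 with doxorubicin and 43.0 to 7.66 with tunicamycin, of which only the last was called. AIMP2 had a range of 1.67. Across the 85 members with 4 finite ratios, Pearson's r of the log2 ratios between pairs of tables was 0.705 to 0.809. The tables share the 2 genotypes but no library. Across the same genes, r of the log2 ratio with the log2 WT level of the same table, which shares the WT value, was -0.10 in control, 0.05 with cisplatin, 0.18 with doxorubicin and 0.04 with tunicamycin.

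Several members had much lower levels with doxorubicin than in control. Levels in different tables were scaled separately, so this is a description. On the log2(FPKM + 1) scale, 16 of the 86 members (18.6%) were at least 4-fold lower in WT doxorubicin than in WT control, as were 14.3% of 9740 other genes at the same minimum. In KO cells 7 members (8.14%) and 16.2% of the other genes were. Adding 1 shrinks a fall that starts from a low level, and most members were already lower in KO control. In KO cells FAM220A went from 5.06 to 0.747 and DAGLB from 8.52 to 1.60, and neither was counted. The counts of the 2 genotypes are therefore not set against each other. The median level of the 16 members was 25.3 in WT control and 3.40 in WT doxorubicin, and in KO cells 11.4 and 1.44. TNRC18, a chromatin protein, went from 34.1 to 14.3 in control and from 3.78 to 1.89 with doxorubicin, and MALSU1 behaved alike at the levels given above. RAC1 and EIF2AK1 kept their WT level under doxorubicin. Under cisplatin and tunicamycin no member was 4-fold lower in WT cells, and the members' median shift from control was -0.06 and -0.14 in WT and -0.05 and -0.09 in KO cells.

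**Figure D4:**
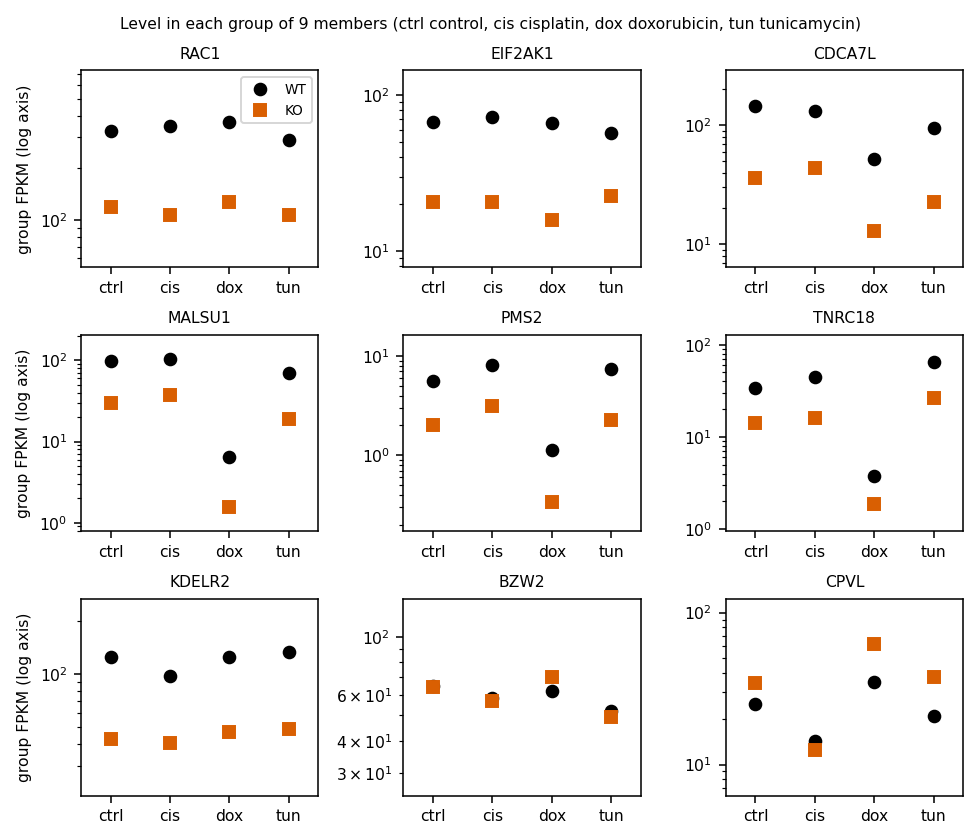
Group FPKM (vertical log axis, 1 value per group with no error available) of 9 members in WT (circles) and KO cells (squares) under control, cisplatin, doxorubicin and tunicamycin. KO lies below WT in all 4 treatments for the first 7 genes; for BZW2 the symbols nearly coincide (64.8 and 64.2 in control), and for CPVL KO is higher except with cisplatin.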

How the data were processed

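Gene expression was measured by paired-end RNA-seq in 16 samples, 2 per group, grouped by the genotype and treatment in the labels. The build hg38 and the tools STAR 2.5.3, Trimmomatic 0.35, FastQC 0.11.5, Cuffdiff and Cufflinks (both without version) are named per the submitters' processing notes, which give no roles. Annotation release and strand setting are not stated in the sources used here. The authors deposited 4 tables with 1 FPKM value per group, the log2 ratio of KO over WT without pseudocount (recomputed to within 4.64e-05), a score that is their test statistic, and p-values with q-values. No value per library is used here, so no standard deviation or refit was possible, and depth is known only roughly. The p-values set KO against WT by the spread the authors' test estimated between samples called biological replicates. They cannot tell a difference between genotypes from one between clones or cultures. Columns were assigned to genotypes from the order WT then KO in the names of the tables, whose inner codes nt and bk are not explained in the labels.

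Members were taken by locus start on chromosome 7 (1 to 30000000). The interval, the 8 gene lists and the alternatives were chosen with earlier results of these data known, and the lists were revised once for gene function after the members' values had been viewed. The count of calls was first made on members at 1 FPKM and then on all tested members, as the design had it. The bounds of the stretches were drawn 3 times with the ratios in view, and the 9 genes plotted by level, the doxorubicin subset and the narrowest range were also picked from the values. An alternative median was counted as moved past a factor of 1.5, since no replicate spread exists. Named genes are list members at 1 FPKM in a group of every table, the 10 most abundant, the 10 lowest and 10 highest median ratios, the 10 widest ranges and those nearest the bound; others are said to be chosen later. 1 member is counted but not reported by name here. Gene positions and types came from GENCODE 29, which matched 478 of 520 members by ID. Medians and counts were computed with Python 3.11.15 and pandas 2.3.3 and tested on simulated data. Alternatives were other minimum levels, a pseudocount of 1, centring, tested members only, a q of 0.01, bounds at 20 and 40 Mb, and, added after the data were seen, positions from GENCODE, protein-coding genes, unshared loci and calls at 1 FPKM.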

Additional observations from a re-analysis of the deposited data

How the results depend on the processing

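No paired analysis was possible because the tables hold 1 value per group, and for the same reason no replicate could be left out. For the median, 3 alternatives per table (tested members only, q at most 0.01 and calls at 1 FPKM) enter the same genes and cannot move it. Apart from the pseudocount, the 9 others kept the median log2 ratio of the members below 0 and the median ratio within 1.5 times that reported, from -1.26 to -0.88 in control, -1.28 to -0.998 with cisplatin, -1.13 to -0.72 with doxorubicin and -1.35 to -0.86 with tunicamycin. With a pseudocount of 1 and no minimum level the median was 0.0 in every table, because most of the 520 members then enter at or near a level of 0. Counts of lower calls stayed within 1.5 times except in unshared loci, where fewer genes enter, at 60 with cisplatin and 60 with tunicamycin. Counts of higher calls are small and moved more. With q at most 0.01 there were 4 in control. With the bound at 20 Mb there were 3 in control, 0 with cisplatin, 4 with doxorubicin and 0 with tunicamycin, since the inner end is then left out. With the bound at 40 Mb there were 6 with cisplatin, 12 with doxorubicin and 10 with tunicamycin. In unshared loci there were 0 with cisplatin, 4 with doxorubicin and 0 with tunicamycin. Without counts per library, how far depth limits a ratio cannot be given.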
